A study of Mus musculus with 2 samples.

Results

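Chromosome 14 of mouse embryonic fibroblasts carried 1038 islands of H3K79me2, a dimethylated lysine in the core of histone H3, out of 27892 on chromosomes 1 to 19. An island was defined on build mm8 from 1 library, replicate 2. Its bins of 1 kb had to hold 12 or more distinct read starts, runs were joined over up to 2 bins below that count, and at least 2 bins were required. The 120.963 Mb from 3 Mb to the last read position were searched. Because the counts of replicate 2 set the islands, their number, width and level in that library are a description. Replicate 1 took no part in the choice, and tests were made in it only.

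Both libraries are chromatin immunoprecipitations of H3K79me2 from mouse embryonic fibroblasts, connective tissue cells cultured from embryos. They form 1 group, with no second condition, and the labels name no strain, genotype or treatment. The gel slice ran from 150 to 350 bp in replicate 1 and from 150 to 300 bp in replicate 2. The libraries are numbered in record order. Whether each had a culture of its own is not stated in the labels, so differences between them measure these samples and may be technical. The cell type could not be checked against marker genes, since no gene coordinates of mm8 were used here.

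H3K79me2 is placed by DOT1L, the only methyltransferase known for this residue, which lies on the globular face of the nucleosome rather than on its tail. DOT1L travels with elongation factors of RNA polymerase II. The mark is therefore known from the bodies of transcribed genes, most densely in their early part, and is sparse in silent and gene-poor chromatin. Levels below are reads per kb, or folds, which are reads per kb divided by the background of the library. That background was the median of the autosomal 10 kb bins with reads, at 6.7 reads per kb in replicate 1 and 3.3 in replicate 2. On chromosome 14 replicate 1 held 773556 distinct starts and replicate 2 held 519693.

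By the islands of replicate 2, chromosome 14 was the autosome with the smallest covered share. Islands covered 10.126 Mb, or 8.37% of the chromosome, against 12.2% of chromosomes 1 to 19 together. It ranked lowest of the 19, below chromosome 3 at 9.07%, while chromosome 11 stood highest at 18.9%. Islands numbered 8.58 per Mb, again the lowest value, against 11.6 over all autosomes and 17.1 on chromosome 11. A single chromosome has no replicate, so these are ranks with no test. By the bin rule alone, 7.78% of the bins on chromosome 14 reached 12 reads, where 10.9% of all autosomal bins did.

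The rank was the same over bins with reads. No read of either library fell in 13.1% of the bins of chromosome 14, the second highest share after the 15.3% of chromosome 7. Over bins with a read in either library, the covered share was 9.63% on chromosome 14 and 13.3% on all autosomes. Chromosome 14 was still the lowest, but chromosome 3 was close to it, at 9.92%. When islands were instead set by replicate 1, with 20 or more reads per bin, they covered 1.75% of chromosome 14. It then ranked second from the bottom, after chromosome 12 at 1.73%.

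The share of islands on chromosome 14 was below its share of length and of listed genes. It makes up 5.03% of the autosomal span, and 851 of the 20665 protein-coding genes that RefSeq lists on autosomes for a later build, GRCm38.p6, or 4.12%. It held 3.72% of the islands and 3.46% of the length they cover. No island was assigned to a gene, because coordinates of that build cannot be laid on mm8.

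**Figure D1:**
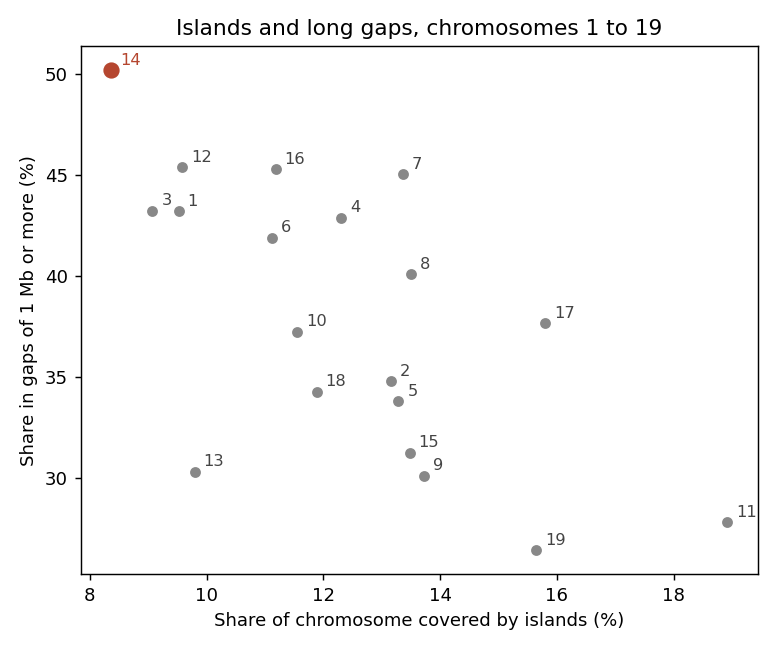
Each point is an autosome, with the share of its length covered by islands on the x axis and the share lying in island-free gaps of 1 Mb or more on the y axis, both in percent. Chromosome 14 (8.37% and 50.2%) is lowest on x and highest on y.

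Where islands were present, their width and level lay close to those of all autosomes. The median width was 5 kb on chromosome 14 and on all autosomes, and the 90th percentile was 21 against 23 kb. Islands of 2 to 3 kb numbered 358 (34.5%, against 31.6% on all autosomes), those of 4 to 9 kb numbered 414, those of 10 to 49 kb 241, and those of 50 kb or more 25 (2.41%, against 2.94%). The 266 islands of at least 10 kb made up most of the marked length, with 4.834 Mb in the 10 to 49 kb class and 2.128 Mb in the widest. The median island stood at 4.29-fold over background in replicate 2, where all autosomes gave 4.36, and at 1.49-fold in replicate 1, against 1.43. Over the whole covered length the mean fold was 2.02 in replicate 1, second highest of the 19 chromosomes in a range from 1.86 to 2.11. In replicate 2 it was 6.61, the tenth of 19.

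Replicate 1 tested the islands independently. By a one-sided Poisson test of its counts against its own background, 485 of the 1038 islands (46.7%) were higher at a Benjamini-Hochberg adjusted p below 0.01. The share over all 27892 autosomal islands was 45.9%, so the share on chromosome 14 lay near it. The test was also run on windows of 5 kb outside islands that had a read of either library in each bin. It called 394 of 15897 on chromosome 14 (2.48%) and 2.69% of 317612 on all autosomes. Adjustment was made over the windows apart from the islands, so the same adjusted p stands for different unadjusted cutoffs. Those windows were added after the data were seen. The share called was larger in wider classes, and the classes of all autosomes followed the same order. Of islands of 2 to 3 kb, 64 of 358 were called (17.9%, against 17.2% on all autosomes). At 4 to 9 kb it was 182 of 414 (44.0% against 40.3%), and at 10 to 49 kb 214 of 241 (88.8% against 84.5%). All 25 of 50 kb or more were called, as on all autosomes. A narrow island also gives the test fewer reads. In all, 936 islands (90.2%, against 87.3% on all autosomes) stood above the background of replicate 1, and 218 reached 2-fold (21.0% against 19.4%). Set against the bins outside islands within 50 kb on either side, 352 islands were called (33.9%, against 34.3% on all autosomes).

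Replicate 2 had the larger share of its reads in islands, which its own counts chose. On chromosome 14 that share was 42.5%, the second lowest of the 19 after chromosome 13 at 41.1%. In replicate 1 it was 17.7%, the lowest of the 19. Its 95% Wilson interval, from 17.6 to 17.8, covers counting error only. Across the 1038 islands the folds of the libraries had a Spearman's rho of 0.56, and 0.73 across the 266 of 10 kb or more. Islands share a library and a local read density, so these values describe the pattern and carry no p. Width went with level in replicate 1 (rho 0.42), which did not set the widths, and in replicate 2 (0.29). Of the 255 regions that replicate 1 gave by itself on chromosome 14, 249 overlapped an island (97.6% of that list), and 179 of the islands were overlapped (17.2% of theirs). Over all autosomes these shares were nearly the same, at 97.6% and 17.9%.

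**Figure D2:**
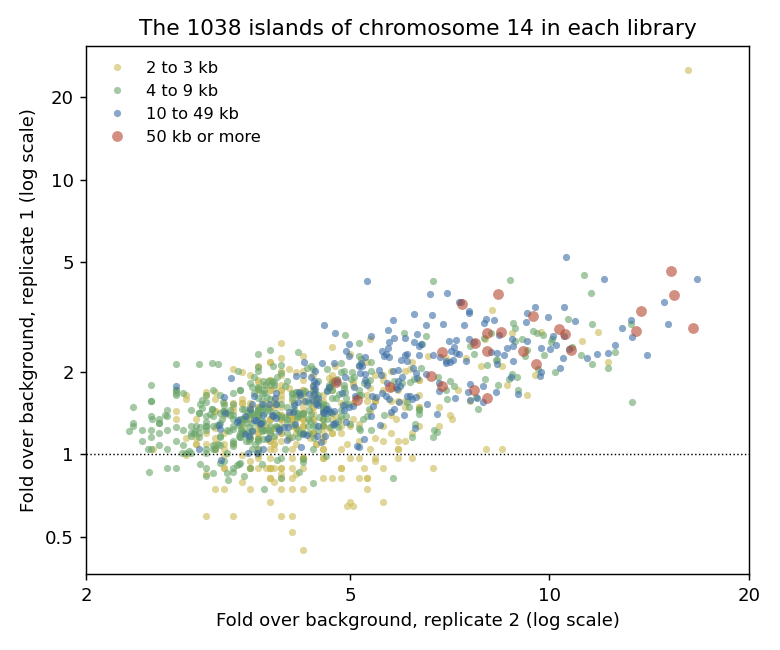
Each point is an island of chromosome 14, with its fold over background in replicate 2 on the x axis and in replicate 1 on the y axis, both on log scales and coloured by width. The dotted line is the background of replicate 1. Most islands (936 of 1038) lie above it, and the point at 25.1-fold in replicate 1 is a 3 kb island rich in reads with 2 placements.

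Of the 10 longest islands, 3 lay close together near the distal end. The longest of all, 218 kb from 120205001 to 120423000, held 3511 reads in replicate 1 and 7740 in replicate 2, which is 2.40-fold (exact 95% Poisson interval 2.32 to 2.48) and 10.8-fold. A gap of 4 kb separated it from the sixth longest, 89 kb from 120427001 to 120516000, at 3.81-fold and 15.4-fold. The third, 135 kb from 119407001 to 119542000, reached 3.34-fold and 13.7-fold. From the start of the third to the end of the sixth, 15 islands covered 605 of 1109 kb, at a mean of 2.78-fold and 11.3-fold. These 3 long islands thus sit in 1 block, and the window of 1 Mb from 120000001 to 121000000 was the most covered of the chromosome, at 52.1%.

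Other long islands lay singly or in pairs. The second longest, 182 kb from 45801001 to 45983000, had 2.73 times background in replicate 1 and 10.6 times in replicate 2. The fourth, 114 kb from 24288001 to 24402000, ranked second by replicate 2 among islands of at least 4 kb, at 16.5-fold, with 2.88-fold in replicate 1. Only 3 kb apart from it lay the ninth, 85 kb from 24405001 to 24490000, at 1.61-fold and 8.04-fold. The remaining 4 of the 10 longest, 85 to 91 kb wide, had 1.76-fold to 2.54-fold in replicate 1 and 5.75-fold to 9.54-fold in replicate 2. They began at 20288001, 22992001, 6664001 and 66803001. All of the 10 passed the test in replicate 1, as did all 819 autosomal islands of 50 kb or more.

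Ranked by replicate 1, the strongest islands of at least 4 kb were mostly shorter. The first, 20 kb from 19715001 to 19735000, had 5.21-fold (4.83 to 5.61) and 10.6-fold in replicates 1 and 2, with 698 reads in each library. Next came 59 kb from 6602001 to 6661000, at 4.63-fold (4.42 to 4.85) and 15.3-fold. An island of 5 kb from 15158001 to 15163000 reached 4.48-fold and 11.3-fold, and one of 13 kb from 121240001 to 121253000 reached 4.35-fold and 12.1-fold. The fifth, 49 kb from 68194001 to 68243000, at 4.34-fold (4.12 to 4.57), was the first by replicate 2, at 16.7-fold. It also held the bin with the most reads of any island in replicate 2, at 174. Among the first 10 of each library, 2 islands were the same, those from 6602001 and from 68194001.

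The other 5 of the first 10 in replicate 1 were 4 to 18 kb wide and had 3.85-fold to 4.33-fold there. They began at 78121001, 71972001, 30596001, 25792001 and 47982001, with 5.30-fold to 11.6-fold in replicate 2. In replicate 2 the islands not yet named were 14 to 80 kb wide and began at 65251001, 120168001, 29435001, 56638001 and 53522001. Their folds were 15.1, 14.9, 14, 13.5 and 13.3 in replicate 2 and 2.99, 3.59, 2.30, 2.81 and 2.68 in replicate 1, in that order.

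A few islands stood apart in the balance between libraries. The 3 kb from 18208001 to 18211000 was the one island with at least 100 reads whose fold was higher in replicate 1, at 25.1 (22.9 to 27.4) against 16.2. Distinct starts of reads with 2 placements lay there at 481 and 164 times their autosomal density in replicates 1 and 2, and their part in the result was not tested. The next, 18 kb from 30596001 to 30614000, had no such excess, at 0.716 and 0.389 times. Its folds were nearly level, at 4.27 (3.91 to 4.66) and 5.30. The ratio of folds was 0.805 there and 0.65 to 0.695 in the islands from 21703001, 61678001 and 85874001.

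At the other extreme, 5 kb from 69280001 to 69285000 had 52 reads in replicate 1 and 220 in replicate 2, or 1.55-fold (1.16 to 2.04) and 13.3-fold. The 6 kb from 13138001 to 13144000 was not above background in replicate 1, at 0.821-fold (0.565 to 1.15), with 5.81-fold in replicate 2. The 4 kb from 44139001 to 44143000 had 1.16-fold (0.786 to 1.64) and 6.67-fold. Those 2 did not pass the test, so the mark at these places rests on replicate 2. The islands from 29435001 and 49847001, at ratios of 0.164 and 0.168, passed it. Reads with 2 placements lay in the one from 49847001 at 4.73 and 14.6 times their autosomal density in replicates 1 and 2. In the one from 29435001 it was 0.276 and 0.876 times. Their part in the ratios was not tested.

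Near the threshold the mark was faint in replicate 1. The 1209 bins with exactly 12 reads in replicate 2 had a mean of 1.40-fold in replicate 1, and the 1591 bins with 11 reads, just outside, had 1.31-fold. The highest bin held exactly 12 reads in 27 islands, whose mean was 1.30-fold in replicate 1. A further 1393 single bins reached 12 reads but stood alone and were left out, at 1.28-fold.

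On average, reads of replicate 1 changed gradually across the edges of wide islands. At 182 edges of islands of 10 kb or more with no island within 20 kb, replicate 1 averaged 7.05 reads per kb at 20 kb outside, 8.23 at 4 kb and 9.40 in the last bin outside. Inside it rose from 10.7 in the first bin to 16.3 in the fourth. The mean of replicate 1 thus crossed the edge as a slope over several bins. These are means over edges placed by replicate 2, so whether any single edge was gradual was not tested. In replicate 2 the step from 6.40 to 21.7 reads per kb came between the bins on each side of the edge, which its own counts set. Over the 4750 such edges of all autosomes replicate 1 followed the same course, from 6.77 reads per kb at 20 kb outside to 16.3 in the fourth bin inside.

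**Figure D3:**
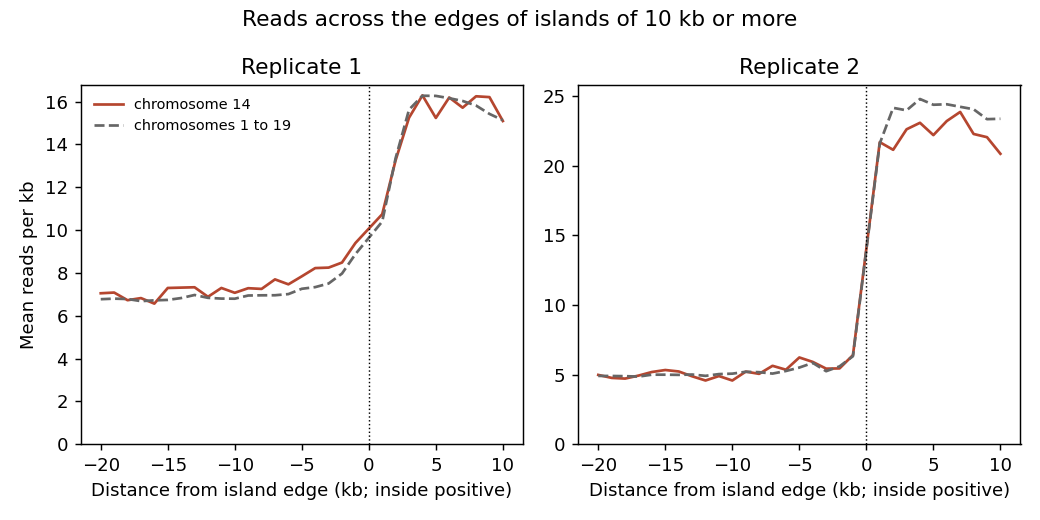
Mean reads per kb on the y axis by distance in kb from the edge of islands of 10 kb or more, with positive values inside, for replicate 1 (left) and replicate 2 (right). The solid line is chromosome 14 (182 edges) and the dashed line chromosomes 1 to 19 (4750 edges). The mean of replicate 1 climbs over several kb, while that of replicate 2 steps at the edge that its counts defined.

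In most wide islands the libraries had the same end higher. Ends were compared as the first and last parts of an island, each its width divided by 3. In 263 islands of 10 kb or more with unequal ends, the same end was higher in both libraries in 199 (75.7%, against 77.4% on all autosomes). In 55 of them the ends differed by 2-fold or more in replicate 2, and replicate 1 had the same end higher in 54, at a median ratio of 1.93. The higher end was the one with the lower coordinate in 137 of the 263 in each library, so neither direction prevailed.

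Gaps without islands filled the rest, and chromosome 14 had more of its length in long ones than any other autosome. Gaps of 1 Mb or more numbered 24 and took 60.7 Mb, or 50.2% of the chromosome, against 38.6% of all autosomes and 45.4% on chromosome 12, the next in order. Over bins with reads the share was 46.0%, still the highest, ahead of chromosome 16 at 44.6%. For gaps of 2 Mb or more, of which there were 10, the share was 34.1% and ranked second. By number, most gaps were short, since 792 of 1039 were 50 kb or less, but these added up to 10.8 Mb. Islands kept close company as well, with 657 of 1038 (63.3%) within 10 kb of another, against 67.7% on all autosomes.

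**Figure D4:**
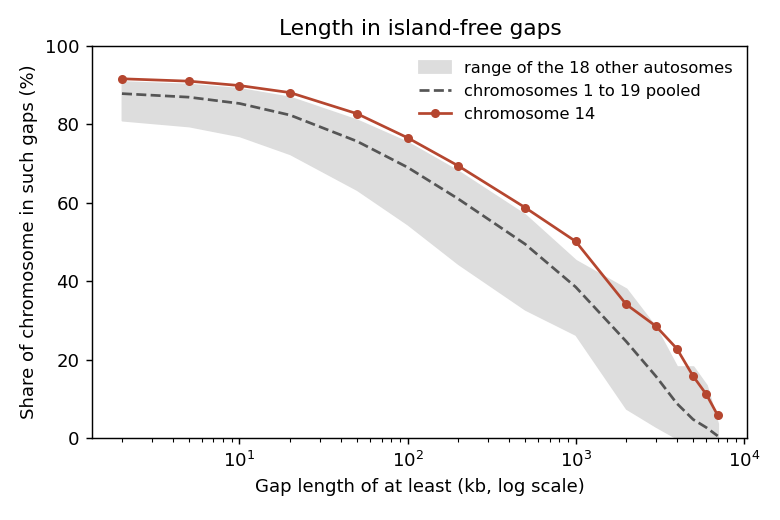
The share of the chromosome, in percent, that lies in island-free gaps of at least the length given on the x axis (kb, log scale). The solid line is chromosome 14, the dashed line all autosomes pooled, and the grey band runs from the lowest to the highest of the 18 other autosomes. Chromosome 14 lies above the band at 1000 kb (50.2%) and within it at 2000 kb (34.1%).

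The longest gaps lay in a row. A stretch of 37.29 Mb from 78505001 to 115795000, chosen after the gaps were seen, ran from the start of the longest gap to the end of the last one of 1.5 Mb or more. It held 8 of the long gaps and 70 islands, with 1.5% covered, in 30.8% of the chromosome. The rest of the chromosome had 968 islands and 11.4% covered, or 11.6 islands per Mb against 1.88 in the stretch. Reads were not missing there, since 8.88% of its bins held none, below the share of the whole chromosome.

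The first of its gaps, 7.088 Mb from 78505001 to 85593000, was the longest of the chromosome. Among the autosomes, chromosome 1 had a longer one, of 7256 kb. Over its bins with reads it held 6.04 reads per kb in replicate 1 and 1.33 in replicate 2, which is 0.902 and 0.402 of background. In 7088 bins, 7 reached 12 reads in replicate 2. The gap of 6.405 Mb from 86364001 to 92769000 had 1.02 and 0.406 of background, and that of 5.66 Mb from 104896001 to 110556000 had 1.01 and 0.418. A gap of 4.274 Mb from 92775001 to 97049000 had 0.986 and 0.405, and one of 3.359 Mb from 110563001 to 113922000 had 0.927 and 0.378. The pattern was the same in these 5, with replicate 1 near its background and replicate 2 well under its own. Counts of replicate 2 set these gaps.

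Outside islands, the libraries differed in how the stretch compared with the rest of the chromosome. Replicate 2 held 1.84 reads per kb between islands in the stretch and 3.85 elsewhere on the chromosome. Its counts set the gaps by which the stretch was chosen, so a lower value there was built in. Replicate 1, which took no part in that choice, held 6.72 and 6.69. The background of each library was a median that also takes in bins in and near islands, so a value below 1 is a value below that median.

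Islands inside the stretch were few, and their level in replicate 1 was close to that of the others. Their mean fold was 1.94 in replicate 1, against 2.02 in the islands elsewhere, and 5.23 in replicate 2, against 6.69. The widest ran 62 kb from 100634001 to 100696000, at 1.83-fold and 4.77-fold. Between the first 2 gaps lay a small group that included 32 kb from 86247001 to 86279000, at 2.37-fold and 5.59-fold, and 28 kb from 85943001 to 85971000, at 2.11-fold and 5.16-fold. Another, 30 kb from 101956001 to 101986000, had 2.38-fold and 7.09-fold.

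Some islands stood alone, with at least 500 kb free on both sides. There were 8 on chromosome 14 (0.771% of its islands), among 100 on all autosomes (0.359%), and 3 of the 8 passed the test in replicate 1. Over all widths 45.9% of autosomal islands passed, but the widest of the 8 was 12 kb. By width, 17.2% of autosomal islands passed at 2 to 3 kb and 40.3% at 4 to 9 kb. The 12 kb from 103397001 to 103409000 had 202 reads in replicate 1 and 197 in replicate 2, or 2.51-fold (2.18 to 2.88) and 4.97-fold. The 5 kb from 113922001 to 113927000 had 2.12-fold (1.66 to 2.67) and 8.06-fold, between gaps of 3359 and 1868 kb. The 6 kb from 92769001 to 92775000 was the most isolated, with 6405 kb free before it and 4274 kb after, at 1.59-fold (1.23 to 2.03) and 3.79-fold.

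The other 5 did not pass. The 7 kb from 110556001 to 110563000 had 1.34-fold (1.03 to 1.72) in replicate 1 and 3.20-fold in replicate 2. The 4 narrower ones, 2 to 3 kb wide, had 0.522-fold to 1.72-fold and 4.09-fold to 6.06-fold. The lowest of these, from 38384001 to 38386000, held 7 reads in replicate 1 and 27 in replicate 2. Reads with 2 placements were absent from 7 of the 8, and in the one from 103397001 their density was 0.215 and 0.584 times the autosomal value. Of all 1038 islands of chromosome 14, 380 held no such read in either library. The autosomal density was only 0.388 and 0.285 distinct positions per kb in replicates 1 and 2. Absence from islands as narrow as these 7 therefore says little about how uniquely reads can be placed there.

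In 4 long gaps elsewhere, 20% or more of the bins held no read of either library. From 39876001 to 44086000, 4.21 Mb, 73.2% of bins were empty, and from 3000001 to 6595000, at the start of the chromosome, 88.5% held none. In 51238001 to 53055000 it was 48.3%, with reads of 2 placements at 4.01 and 2.24 times the autosomal density in replicates 1 and 2. In the last gap, from 122797001 to 123963000, it was 22.0%. What lies in the empty bins was not measured. In the other 20 long gaps under 20% of bins were empty, and they make up 41.3% of the chromosome. Over bins with reads, replicate 1 ran there from 0.769 to 1.15 of background with a median of 0.937, and replicate 2 from 0.342 to 1.04 with a median of 0.548.

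Among these 20, the longest outside the sparse stretch were 2.337 Mb from 36047001 to 38384000, 2.189 Mb from 33599001 to 35788000 and 2.157 Mb from 8189001 to 10346000. The first had 0.843 and 0.342 of background, the lowest of all 20 in replicate 2. In the second the values were 0.77 and 0.53. The third stood much higher in replicate 2, at 0.971 and 0.894, and 18 of its bins reached 12 reads. Gaps of similar length thus differed in how far replicate 2 fell below its background.

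In both libraries the mean level was lower in each longer class of gaps. Over bins with reads, replicate 1 was at 1.28 of background in the 418 gaps under 10 kb, 1.15 in the 475 of 10 to below 100 kb, 1.04 in the 122 of 100 kb to below 1 Mb and 0.912 in the 24 longest. Replicate 2 went from 1.99 to 1.68, 1.20 and 0.526, where its own counts set the gaps. Within the longest class replicate 1 did not follow length. It was at 1.02 in the gap of 6.405 Mb, 0.769 in that of 1.406 Mb and 1.15 in that of 1.026 Mb. That class also pools the 4 gaps with 20% or more empty bins, at 0.291 to 0.919 in replicate 1. Islands stood 2.22 times above the long gaps in replicate 1 and 12.6 times in replicate 2. Over all autosomes these ratios were 2.11 and 11.8, and replicate 1 followed the same order, from 1.26 to 1.11, 0.997 and 0.917.

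Along the chromosome, a sparse first segment came before a long row of more covered ones, which was followed by a row of sparse ones. In 13 consecutive segments, cut at every 10 Mb, the covered share was highest in the seventh, from 60000001 to 70000000, at 18.6% with 176 islands, and in the last, from 120000001, at 18.1% with 57 islands in 3.963 Mb. The third, from 20000001 to 30000000, had 15.1% with 152 islands and no gap of 1 Mb. The ninth to twelfth, from 80000001 to 120000000, had 0.98%, 1.38%, 3.13% and 3.98%, with 9 to 36 islands each. Islands of the twelfth and thirteenth were the strongest in replicate 2, at 8.19-fold and 8.41-fold. The mean of the twelfth includes the 135 kb island from 119407001, at 13.7-fold.

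The first segment, from 3000001 to 10000000, held 16 islands that covered 3.29% of it, and 48.9% of its bins were without reads. Over its bins with reads the covered share was 6.43%. Its islands had the highest mean of all segments in replicate 1, at 2.47-fold, and 8.02-fold in replicate 2. They include the islands from 6602001 and 6664001 named above. Across the 113 windows of 1 Mb with reads in at least 50% of bins, reads per kb in the libraries had a Spearman's rho of 0.83. Windows of 1 library share its depth, so this is a description with no p. Replicate 2 spanned 0.873 to 21.0 reads per kb over these windows and replicate 1 spanned 3.83 to 11.9.

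**Figure D5:**
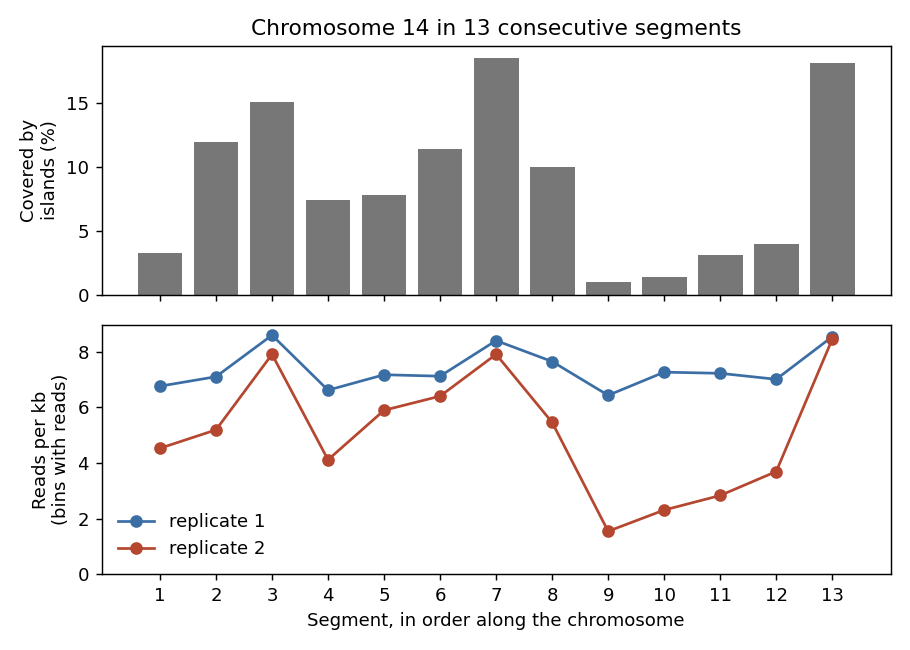
Chromosome 14 in 13 consecutive segments, with the share covered by islands in percent (bars, upper panel) and mean reads per kb over bins with reads in each library (points, lower panel). Segment 1 is covered to 3.29% and segments 9 to 12 to 3.98% at most. In segments 9 to 12 replicate 2, whose counts set the islands, falls to 1.54 reads per kb while replicate 1 stays at 6.43 or above.

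Dense windows were scarce. Of 120 full windows of 1 Mb, 37 (30.8%) held no island at all, against 22.0% of the 2397 on all autosomes, and 16 (13.3%) were covered to 20% or more, against 24.4%. Windows with few reads were counted too, as in the gap from 39876001 to 44086000, where 73.2% of bins were empty. The shares without such windows were not computed. After the distal window at 52.1%, the most covered were 19000001 to 20000000 at 44.9%, 24000001 to 25000000 at 39.1%, 68000001 to 69000000 at 38.7% and 10000001 to 11000000 at 35.6%. Within them the islands averaged 2.34-fold, 1.96-fold, 2.43-fold and 1.48-fold in replicate 1, so coverage and level did not run in one order. The longest run of empty windows was 6, from 79000001 to 85000000.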

How the data were processed

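Bowtie placed the reads on mm8, per the file headers, with the options -e 70 -k 2 -m 2 -n 2 -l 36 and the best placement first. The tool and build also stand in the submitters' processing notes, and the version of Bowtie is not given here. The authors deposited 1 list of signed read positions per library, with reads of 1 and of 2 placements apart, and no counts or region calls. Here reads with 1 placement were used, 1 per position and strand, and counted in 1 kb bins of the position as deposited. Repeated starts made up 15.6% of the reads of replicate 1 on chromosome 14 and 5.42% of replicate 2. Coordinates count from 1. Sonicated fragments averaged 500 bp, per the labels' protocols, and were amplified by 18 cycles of LM-PCR.

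The test in replicate 1 was a one-sided Poisson test over all autosomal islands, with Benjamini-Hochberg adjustment. It was also run on simulated Poisson counts at the same background, which cannot show how it performs on real reads. The test covers counting error only, as do the intervals, since PCR reads with no molecular identifier can repeat a molecule. No input library was used here. Alternatives changed the bin minimum, joining, width, reads, shift, bin size, background, threshold and depth, or left out a library. The regions named are the 10 longest islands, the 10 highest in each library among those of at least 4 kb, 5 at each end of the ratio between libraries with at least 100 reads, the longest gaps, and the 5 most covered windows. Islands standing alone and the sparse stretch were added after their values were seen. The chromosome, the island rule and these lists were chosen with earlier results of these data known. Sequences were not printed, since no mm8 sequence was used here. The software was SciPy 1.17.1, NumPy 2.4.6, matplotlib 3.10.9 and Python 3.11.15.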

Additional observations from a re-analysis of the deposited data

Results flagged for a closer look

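Reads with 2 placements were left out of all counts above, and with repeats counted they were most frequent on chromosome 14 in the bin from 39187001 to 39188000, outside any island. It held 15942 lines in replicate 1 and 1874 in replicate 2, where a count of 0 would allow 3. Reads with 1 placement numbered 214 and 114 in the same bin, which lies in a gap of 1.436 Mb from 38386001 to 39822000 and stood alone at the minimum, so it made no island. By distinct positions this bin was also the highest of replicate 2, with 155, while that of replicate 1 was 18209001 to 18210000, with 316, inside the island from 18208001.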

How the results depend on the processing

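No paired analysis was possible because the libraries form 1 group. The number of islands, 1038, became 688 and 458 at bin minimums of 15 and 20 reads, 2431 with single bins and 523 with at least 5 bins, and 427 with 2 kb bins. Replicate 1 by itself, with 20 or more reads per bin, gave 255. Leaving out replicate 1 changes nothing here, since it takes no part in the rule. The covered share, 8.37%, was 11.99%, 5.76% and 3.73% at 10, 15 and 20 reads, 5.58% without joining and 11.4% with joining over 5 bins. It was 9.52% with single bins, 7.12% with at least 5, 9.21% with repeated starts kept and 8.98% with reads of 2 placements added. With 2 kb bins it was 7.22%, over bins with reads 9.63%, and by the islands of replicate 1 alone 1.75%. Chromosome 14 was the lowest autosome under each of these but 1, the islands of replicate 1 (second lowest). Its share in gaps of 1 Mb or more stayed the highest of the 19 under each planned change of rule, and that in gaps of 2 Mb or more was the second highest. Gaps of 500 kb or more numbered 39 and those of 2 Mb or more 10, against 24 of 1 Mb. All 17 alternatives kept the number of islands called in replicate 1 within 1.5 times of 485, from 331 to 700. The share called varied far more, along with that of all autosomes. It ran from 20.5% with single bins (22.0% on all autosomes) to 83.0% at 20 reads (79.6%). Most of these settings change which bins may count, and beyond that the cause was not tested. The mean depth, 6.39 and 4.30 reads per kb on chromosome 14, limits what islands of 2 to 3 kb can show.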

Other observations

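Of the 255 regions that replicate 1 gave by itself, 6 lay outside islands, and 2 of these were close to each other in the sparse stretch. One spanned 97661001 to 97665000, with 64 reads in replicate 1 (2.39-fold) and 13 in replicate 2 (0.985-fold). The second spanned 97708001 to 97712000, with 80 reads (2.99-fold) and 15 (1.14-fold). In the second, reads with 2 placements were absent. The other 4 had 2.53-fold to 3.94-fold in replicate 2.

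Only 2 islands of chromosome 14 held reads with 2 placements at 10 or more times their autosomal density in both libraries. Beside the one from 18208001 this was 6 kb from 17060001 to 17066000, at 13.8 and 17.5 times, with 2.29-fold in replicate 1 and 9.19-fold in replicate 2. In 380 islands neither library had such a read.

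Runs of bins with no read in either library reached 311 kb from 24815001 to 25126000, partly inside the well covered window from 24000001 to 25000000, and 247 kb from 4002001 to 4249000. There were 35 such runs of 50 kb or more, adding up to 3.41 Mb of the 15.8 Mb without reads.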
